A study of Caenorhabditis elegans with 9 samples.

Results

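The 330 genomic regions described here carried recurring EGL-43 peaks and no recurring FOS-1 peaks in dopaminergic neurons of Caenorhabditis elegans larvae. They were chosen from the authors' combined EGL-43 list, whose 2477 nuclear regions each hold a peak from at least 1 of 3 replicate EGL-43 peak lists. A region was kept when peaks of at least 2 of the 3 EGL-43 lists lay in it by 1 bp or more. It was dropped when it overlapped a region of the combined FOS-1 list that itself had peaks in at least 2 of the 3 FOS-1 lists. Recurrence for EGL-43 left 412 regions, 16.6% of the 2477, and the FOS-1 condition removed 82 of them, so that the 330 are 13.3% of all nuclear EGL-43 regions. For FOS-1, 218 of 2686 regions (8.12%) recurred. The choice rests on peak presence in these 6 lists. Peak scores, false discovery rates, widths and overlaps from the same lists are therefore given as descriptions, without tests.

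EGL-43 is a zinc finger transcription factor related to mammalian EVI1 (MECOM), a member of the PR domain family. In C. elegans it is known for its part in the migration of the HSN motor neurons and in the fate and invasion of the anchor cell, a gonadal cell that breaches a basement membrane to reach the vulva. FOS-1 is the worm's Fos protein, a basic leucine zipper factor of the AP-1 class, which acts with EGL-43 in the anchor cell. Dopaminergic neurons of the worm make, package and take back dopamine, and dat-1 encodes the transporter that takes it back. NanoDam reads out where a tagged protein lies on DNA: a nanobody against green fluorescent protein (GFP) brings the bacterial methylase Dam to the protein, and Dam methylates adenine in nearby GATC sequences. A peak is thus a run of GATC fragments called for more methylation than in worms without the tagged factor. Its edges fall on GATC sites rather than on the bound base.

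There were 9 libraries of whole L3 larvae, about 5000 worms each, and all animals carried bmd261, a single-copy transgene in which a dopaminergic promoter (dat-1 in the sample titles) drives the Dam fusion. The 3 EGL-43 libraries came from strain TV27655, bmd261; egl-43(wy1449), with GFP on the endogenous EGL-43. The 3 FOS-1 libraries came from strain TV27857, bmd261; fos-1(wy1539), with GFP on the endogenous FOS-1. The 3 control libraries came from strain TV27654, bmd261 alone. Worms were kept for 3 generations on bacteria that lack Dam, and larvae were taken 24 h after feeding began at 25 °C. Each peak list sets 1 tagged library against its same-numbered control, so EGL-43 list 1 and FOS-1 list 1 share a control. Cell identity rests on the promoter, since DNA of all cells was extracted. Nothing in the labels says that same-group libraries came from separate cultures, so their spread may be technical. The lists gave 1111, 1080 and 908 nuclear EGL-43 peaks and 1067, 1045 and 832 nuclear FOS-1 peaks. Read depth is not stated in them. The authors' peak scores were above 0 in every list but FOS-1 list 3, where they ran from -2.45 to 12.6. What a negative score means is not stated, so some peaks of that list may not mark enrichment over the control. Coordinates are those of the lists, in the build ce10 that the submitters' processing notes name. No genome sequence or annotation of that build was used here. The regions were therefore not assigned to genes, the dopaminergic marker genes could not be looked up, and no sequence is shown.

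The measure that the choice does not use is the presence of peaks in a list left out of it. For each replicate number, regions were chosen again by the same rule from the other 2 numbers alone, with peaks of both EGL-43 lists required and regions where both FOS-1 lists recurred dropped. They were then looked up in the EGL-43 and the FOS-1 list of the left-out number, which share a control library that took no part in the choice. More than 1 in 2 of the chosen regions had a peak in the left-out EGL-43 list each time. The FOS-1 list of the same number had a peak in fewer of them each time.

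With number 1 left out, 193 regions were chosen, and 59.1% had an EGL-43 peak against 26.4% with a FOS-1 peak. With number 2 left out, 53% of 230 regions had an EGL-43 peak and 35.2% a FOS-1 peak. With number 3 left out, 58% of 174 regions had an EGL-43 peak and 14.4% a FOS-1 peak. The EGL-43 shares lay close together and all exceeded the highest FOS-1 share, while the FOS-1 shares were spread. The mean was 56.7% ± 3.22 for EGL-43 lists and 25.3% ± 10.5 for FOS-1 lists (SD, n = 3 each), a difference of 31.4 percentage points (two-sided exact permutation test over the 6 lists, p = 0.1, the smallest that 3 lists against 3 can give). The 3 choices share lists, so the values of a factor are not independent. The 2 values of a number come from the same regions and share a control, so they are pairs, which this test ignores. Paired by number, a two-sided exact sign-flip test gave p = 0.25, the lowest possible. The regions were chosen for EGL-43 and against recurring FOS-1, and no set chosen for FOS-1 was looked up. How far the choice itself makes the difference was not tested. In base pairs, the left-out EGL-43 lists covered 35.8% ± 3.79 of the chosen regions and the FOS-1 lists 11.9% ± 4.91 (SD, n = 3 each). Over the whole chromosomes the EGL-43 lists 1, 2 and 3 covered 1.65%, 1.69% and 1.28% of bases and the FOS-1 lists 2.15%, 1.56% and 2.27%. FOS-1 lists 1 and 3 thus covered more bases than their EGL-43 partners and list 2 fewer, while each FOS-1 list had fewer peaks than its partner. The part of list size in the shares was not tested.

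Regions found in only 1 of the other 2 EGL-43 lists give the background for these shares. In them the left-out EGL-43 list had a peak in 14.8%, 11.9% and 13.4% for numbers 1, 2 and 3, and the left-out FOS-1 list in 9.29%, 9.57% and 6.25%. Regions found in both other lists were thus met by the left-out EGL-43 list 3.99, 4.45 and 4.35 times as often, and by the left-out FOS-1 list 2.84, 3.68 and 2.3 times as often. The share rose for both factors, by more for EGL-43 with each number. The regions found in both were also longer, with medians of 2434, 2506 and 2688 bp against 1193, 1128 and 1231 bp. The part of length in these ratios was not tested. The comparison of EGL-43 with FOS-1 above is made on the same regions, but their extent is set by EGL-43 peaks. The part of length in it was not tested either.

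**Figure D1:**
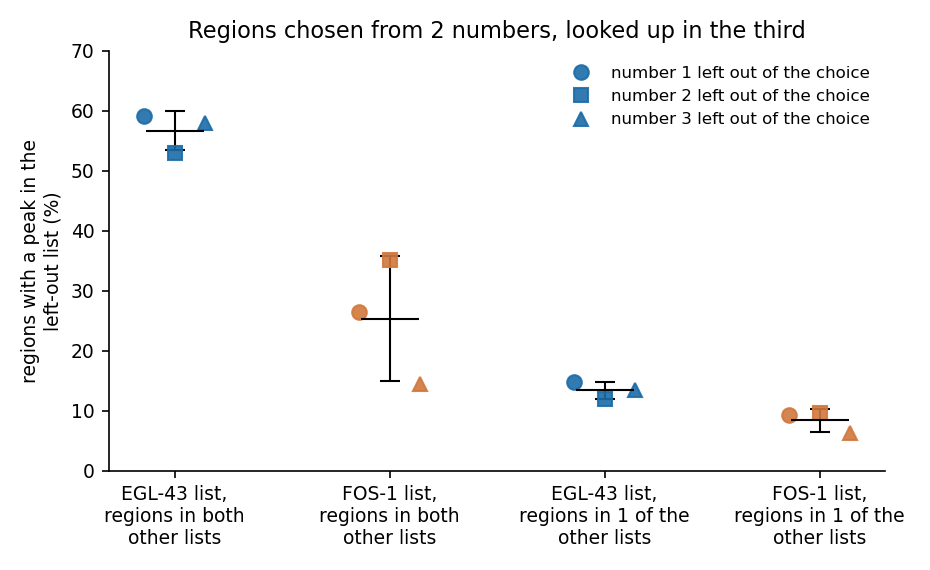
Share of regions (%, vertical axis) with a peak in the left-out EGL-43 (blue) or FOS-1 (orange) list, for regions found in both other EGL-43 lists (2 columns at left) and in 1 of them (2 columns at right). Symbols mark the left-out number, horizontal bars the mean and whiskers the SD of 3 values; the 3 EGL-43 shares at left (53% to 59.1%) lie above the 3 FOS-1 shares (14.4% to 35.2%).

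Peaks of the left-out EGL-43 lists that fell on the chosen regions ranked above the rest of their list. Ranks are given as percentiles of the authors' score within a list, with the lowest score near 0 and the highest near 100, because the labels give the score no scale and the lists span different ranges. The median percentile was 68.1, 55.3 and 73.5 on the chosen regions for numbers 1, 2 and 3, against 48.7, 48.9 and 46.8 for the other peaks of the same lists. These peaks were also longer, with medians of 2017, 1790 and 1870 bp against 1212, 1332 and 1131 bp. All 3 lists went the same way, list 2 by the least.

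The recurring regions divided unevenly by support. Of the 330, 91 (27.6%) had a peak in all 3 EGL-43 lists, against 130 of the 2477 nuclear regions (5.25%), a contrast that the choice itself makes. A further 95 had peaks in lists 1 and 3, 76 in lists 2 and 3, and 68 in lists 1 and 2. List 1 had a peak in 254 of the 330, list 2 in 235 and list 3 in 262, while the lists met 43.7%, 42.5% and 35.7% of all nuclear EGL-43 regions. List 3 was the shortest list and yet met the most of them: 29.8% of its peaks lay in these regions, compared with 24.6% of list 1 and 23.3% of list 2. When 1 number was ignored and both remaining lists were required, 197 regions of the authors' combined list were chosen without number 1, 228 without number 2 and 172 without number 3. These counts differ from the 193, 230 and 174 above because there the regions were rebuilt from peaks of the remaining lists alone.

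Where 1 EGL-43 list lacked a peak, its nearest peak usually lay well outside the region. The median gap was 21578 bp for the 76 regions missing from list 1, 18569 bp for the 95 missing from list 2, and 46896 bp for the 68 missing from list 3. A peak of the missing list lay within 2 kb of 6, 14 and 1 of them. Most of the 239 regions with 2 lists thus had no peak of the third list close by. The same gaps were not taken for other EGL-43 regions, so whether they are particular to these is not known.

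FOS-1 was not absent from these regions, because the rule allows a FOS-1 peak that does not recur. No FOS-1 list had a peak in 159 of the 330 (48.2%), 1 list had one in 161 (48.8%) and 2 lists in 10 (3.03%). A peak of at least 1 FOS-1 list was present in 171 (51.8%), against 820 of all 2477 nuclear EGL-43 regions (33.1%) and 567 of the 2065 found in 1 EGL-43 list (27.5%). By list, FOS-1 list 1 met 68 of the 330 (20.6%), list 2 met 83 (25.2%) and list 3 met 30 (9.09%), against 15%, 15.6% and 8.68% of all nuclear EGL-43 regions. The share for list 3 was near that background. The FOS-1 condition was applied to the 330 but not to this background, and it lowers their shares. Before it, over all 412 recurring EGL-43 regions, FOS-1 lists 1, 2 and 3 met 33.7%, 36.2% and 16%. The 330 are longer than EGL-43 regions as a whole, with a median of 2385 bp against 1280 bp, and the part of length in these shares was not tested.

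The FOS-1 peaks of lists 1 and 2 lay more often in regions where the same-numbered EGL-43 list had a peak, while those of list 3 showed little of this. EGL-43 list 1 had a peak in 63 of the 68 regions with a FOS-1 list 1 peak (92.6%), against 191 of the 262 without one (72.9%). EGL-43 list 2 had a peak in 72 of the 83 regions with a FOS-1 list 2 peak (86.7%), against 163 of the 247 without one (66%). EGL-43 list 3 had a peak in 25 of the 30 regions with a FOS-1 list 3 peak (83.3%), against 237 of the 300 without one (79%). Because the rule requires 2 of 3 EGL-43 lists, any given list is present in most of the regions, so each share is read against the second of its pair. Seen from the EGL-43 side, FOS-1 list 2 met 29 of 76 regions (38.2%) of EGL-43 lists 2 and 3, 15 of 68 (22.1%) of lists 1 and 2, and 11 of 95 (11.6%) of lists 1 and 3, the pair without its number. FOS-1 list 1 met 17 of 68 (25%) of lists 1 and 2 and 25 of 95 (26.3%) of lists 1 and 3, but 5 of 76 (6.58%) of lists 2 and 3. FOS-1 list 3 met few of any pair, from 5 of 68 (7.35%) to 10 of 95 (10.5%). Lists of a number share a control library, and its part in these counts cannot be told apart from binding of both factors.

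The same was seen in the left-out lists. With number 1 left out, 38.6% of the 114 chosen regions with an EGL-43 peak also had a FOS-1 peak, against 8.86% of the 79 without one. For number 2 the shares were 47.5% of 122 and 21.3% of 108. For number 3 they were 15.8% of 101 and 12.3% of 73, a smaller gap than for the other two.

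**Figure D2:**
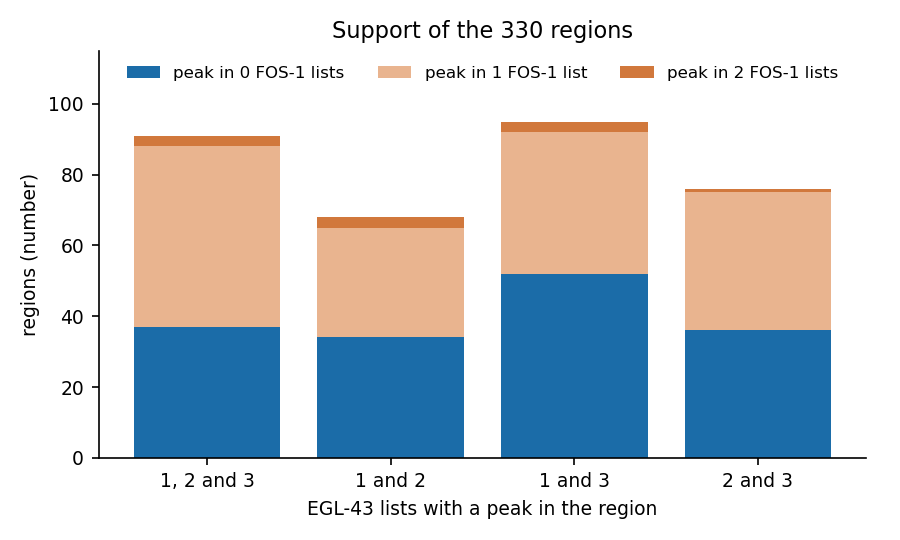
Number of the 330 regions (vertical axis) by the EGL-43 lists with a peak in the region (horizontal axis), divided by the number of FOS-1 lists with a peak there. Regions in all 3 EGL-43 lists number 91, of which 37 have no FOS-1 peak, 51 have one in 1 list and 3 in 2 lists.

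For the 159 regions without any FOS-1 peak, the nearest FOS-1 peak of any list lay a median of 8989 bp away. It was within 1000 bp of 11 of them (6.92%), within 5 kb of 55 (34.6%) and within 10 kb of 85 (53.5%), and the farthest was 272 kb away. Recurring FOS-1 regions lay a median of 121 kb from the 330 regions and within 10 kb of 37 (11.2%). Over all EGL-43 regions without a FOS-1 peak, the median gap was 11937 bp and 741 of 1657 (44.7%) had a FOS-1 peak within 10 kb. Of the 2327 EGL-43 regions that overlap no recurring FOS-1 region, 158 (6.79%) had one within 10 kb. Both shares were higher for the recurring regions than for EGL-43 regions as a whole. The 2 distances are to lists of different size, 218 recurring regions among 2686, and are not comparable with each other.

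Peaks of different EGL-43 lists in a region coincided to varying degrees. The median region had 1075 bp covered by 2 or more EGL-43 lists, 52.6% of its length. In 260 (78.8%) that stretch was 500 bp or longer. At the other end, 20 regions (6.06%) had a single base in 2 lists, because peaks of different lists met at 1 shared edge base, and 30 (9.09%) had under 100 bp. All 20 had peaks in 2 lists only. Among the 91 regions in all 3 lists, a median of 931 bp was covered by every list, 62 (68.1%) had 500 bp or more, and 12 (13.2%) had no such base. Of 555 overlapping pairs of peaks from different lists, 125 (22.5%) had the same start, 102 (18.4%) the same end and 35 (6.31%) both. A single region held 1 identical peak in all 3 lists, chrX:8019128-8021805, which is 2678 bp long.

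**Figure D3:**
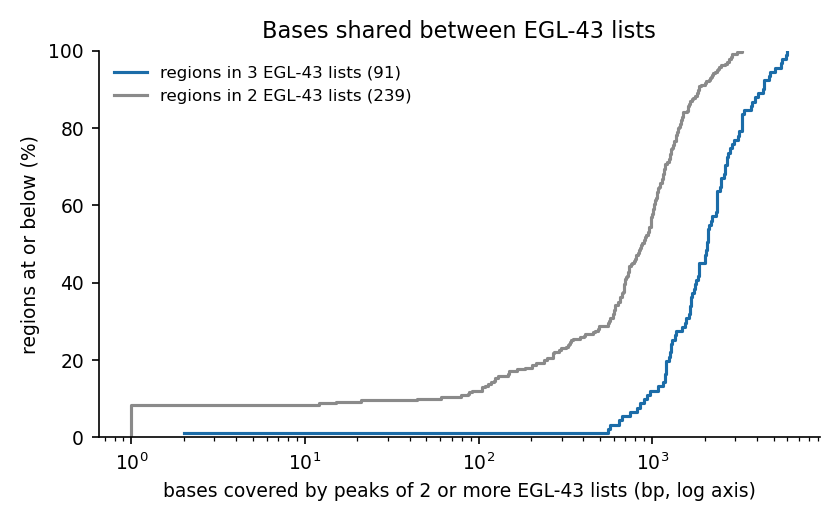
Cumulative share of regions (%, vertical axis) by the bases covered by peaks of 2 or more EGL-43 lists (bp, log axis), for the 91 regions in 3 lists (blue) and the 239 in 2 lists (grey). The step at 1 bp in the grey line is the 20 regions whose peaks share a single edge base.

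These edge cases mark the threshold of the choice. Just inside it are the 20 regions with 1 shared base, such as chrI:4093514-4096978 and chrV:102417-103990. Just outside it are chrI:3553811-3553865 and chrI:3553878-3554103, which belong to different EGL-43 lists and lie 12 bp apart. For FOS-1, the closest region kept was chrX:8162107-8163725, at 793 bp from a recurring FOS-1 region, and the least overlapping region dropped was chrII:6039803-6044960, with 427 bp in common. No dropped region overlapped a recurring FOS-1 region by under 100 bp. That overlap does not show how the FOS-1 region itself came to recur. With peaks trimmed by 1 bp at each end, 8 regions were chosen that met none of the regions kept here. Some exclusions thus depended on edge bases of peaks. Whether these were edges of FOS-1 or of EGL-43 peaks was not tested.

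Peaks of every score level lay in the 330 regions. Divided into 4 equal parts by score from low to high, list 1 had 20.9%, 20.5%, 24.2% and 32.7% of its peaks in the 330 regions. List 2 had 21.5%, 21.5%, 29.6% and 20.7%, with no excess in its highest part, and list 3 had 18.1%, 27.3%, 36.6% and 37.4%. Counted over all 412 recurring EGL-43 regions, with the 82 that also recurred for FOS-1, the shares were 24.8%, 25.2%, 31% and 47.5% in list 1. They were 24.8%, 27%, 37.8% and 29.6% in list 2, and 22.9%, 37.4%, 44.9% and 51.1% in list 3. In lists 1 and 3 recurrence was thus most frequent in the highest part, and in list 2 in the part below it. The median score of peaks in the regions was 1.75, 2.26 and 3.8 in lists 1, 2 and 3, against 1.67, 2.21 and 3.55 for the other peaks of those lists.

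The lists did not rank the shared regions alike. Over the 91 regions in all 3 lists, Spearman's rho between score percentiles was 0.0367 for lists 1 and 2, 0.000406 for lists 1 and 3, and 0.0403 for lists 2 and 3, as a description across regions. The median spread between the highest and the lowest percentile of a region was 43. In 31 of the 91 (34.1%) every list placed the region above percentile 50, and in 5 (5.49%) above percentile 75. A high mean rank was therefore reached by few regions, and position in 1 list said little about position in another.

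**Figure D4:**
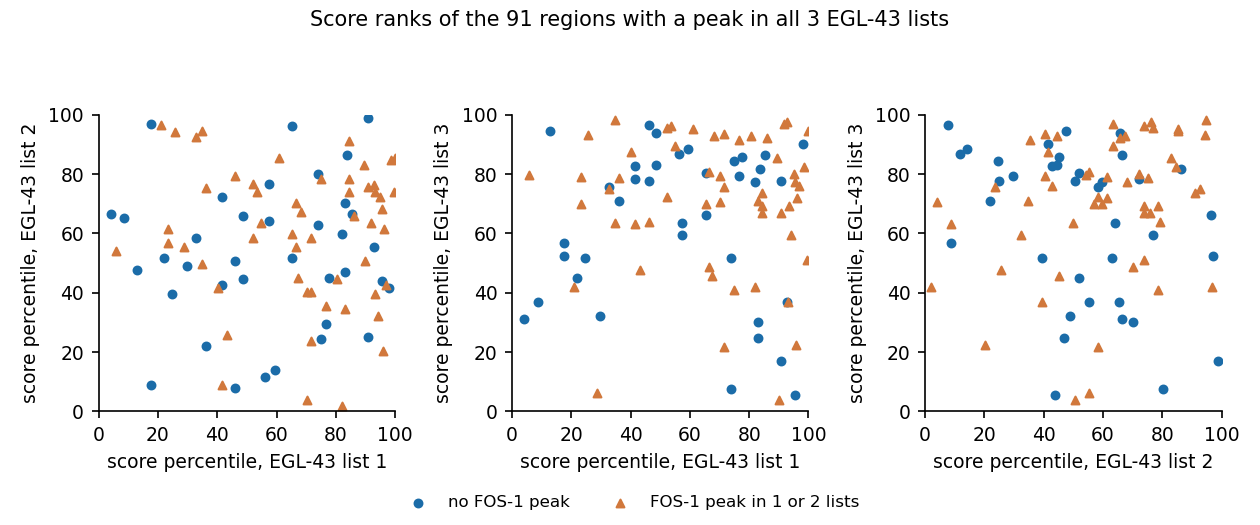
Score percentile of each of the 91 regions in 1 EGL-43 list (horizontal axis) against another (vertical axis), for the 3 pairs of lists; triangles are regions with a peak in 1 or 2 FOS-1 lists. The points show no trend in any panel (rho 0.0367, 0.000406 and 0.0403 from left to right).

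The 8 regions with the highest mean percentile among those in all 3 lists follow, with scores in lists 1, 2 and 3. The first, chrX:16710321-16713429, scored 2.98, 2.72 and 4.90, at percentiles 99.9, 85.3 and 94.4, a mean of 93.2 ± 7.36 (SD, n = 3), and all 3 lists shared 1641 bp. Its 1 FOS-1 peak, in list 1, stood at percentile 1.12 of that list. The region was near the top of each EGL-43 list and near the bottom of the only FOS-1 list with a peak there.

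Region chrIII:3696656-3699353 scored 2.22, 2.56 and 5.43, at percentiles 92.7, 76.3 and 97.6. FOS-1 list 2 had a peak there at percentile 28.1. Region chrI:4699713-4703300 scored 2.53, 2.71 and 4.38, at percentiles 98.6, 84.6 and 82.4, and its FOS-1 peak, also in list 2, stood at 95.4. The pair had similar EGL-43 ranks, while their FOS-1 peaks lay far apart in rank.

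Region chrII:6940749-6943820 was the most even of those with a FOS-1 peak, with scores of 2.16, 2.67 and 4.48 at percentiles 89.4, 82.9 and 85.4. FOS-1 list 2 had a peak there at 92.5. Region chrIII:4446945-4452405 scored 2.20, 2.36 and 5.26, at 91.9, 63.5 and 97, with 2965 bp in all 3 lists and a FOS-1 peak in list 3 at 11.4. It lies 1124 bp from a recurring FOS-1 region, which makes it one of the kept regions closest to that limit.

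The other 3 of the 8 had no base in all 3 lists. Region chrIV:1913478-1917214 scored 2.04, 2.74 and 4.36, at percentiles 83.6, 86.4 and 81.7, a mean of 83.9 ± 2.35 (SD, n = 3). It alone of the 8 had no FOS-1 peak. Its authors' false discovery rates were 7.3e-22, 1.3e-25 and 4e-37 in lists 1, 2 and 3. Region chrIV:16494361-16495426 scored 2.05, 2.87 and 4.08, at percentiles 84.4, 91.1 and 73.5. Region chrI:9128139-9132081 scored 2.32, 2.50 and 4.31, at 95, 72.2 and 79.9. Both had peaks of FOS-1 list 2, at 59.5 and 74.2, so that 7 of the 8 highest regions held a FOS-1 peak, 5 of them in list 2. Over the 91 regions in all 3 lists, 59.3% held a FOS-1 peak and 30.8% one of list 2.

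Without any FOS-1 peak, chrIV:1913478-1917214 was followed by 4 regions. Region chrII:9954620-9961245 scored 2.06, 2.41 and 4.53, at percentiles 85.3, 66.4 and 86.5, and its nearest FOS-1 peak was 23424 bp away. Region chrII:7591179-7594522 scored 2.48, 2.12 and 4.68, at 98, 41.5 and 90.2, with list 2 far below the others and a FOS-1 peak only 151 bp beyond its edge. Region chrII:6144649-6148043 was high in list 2 instead, with scores of 1.83, 3.06 and 3.92 at 65.3, 96.3 and 66.3. Region chrX:5726397-5728350 scored 2.01, 2.31 and 4.20, at 81.9, 59.7 and 77.2, and a FOS-1 peak lay 320 bp away. Among these 5 named regions the gap to the nearest FOS-1 peak thus ran from 151 to 23424 bp.

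Among regions in exactly 2 EGL-43 lists with no FOS-1 peak, chrX:3113207-3114442 ranked first, scoring 2.43 and 4.72 in lists 1 and 3 at percentiles 97.5 and 91.2. Region chrV:6874936-6878182 scored 2.24 and 2.58 in lists 1 and 2, at 93.3 and 77.3. Region chrX:7485059-7487177 scored 2.24 and 2.45 in the same lists, at 93.3 and 69.4, and had no FOS-1 peak within 73554 bp. In each of these 3, 1 list placed the region at percentile 93.3 or higher and another list had no peak there. Region chrIII:5986537-5990079 scored 2.90 and 3.99 in lists 2 and 3, at 92.6 and 69.8. Region chrX:5707994-5710528 scored 1.88 and 5.24 in lists 1 and 3, at 70.3 and 96.9, but its 2 peaks shared only 1 base.

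The 3 longest regions differed in rank. The longest, chrX:13554777-13564256, spans 9480 bp, with scores of 1.89 and 2.93 in lists 1 and 2 at percentiles 71.5 and 93.9, a mean of 82.7, 3277 bp in both and a FOS-1 peak in list 1 over 416 bp. The next, chrI:7707988-7717310, spans 9323 bp with scores of 2.03, 2.46 and 3.38 at percentiles 83, 70.1 and 30.2, and has no FOS-1 peak and no base in all 3 lists. The third, chrX:5788982-5797238, spans 8257 bp, has 69 bp in all 3 lists and stood at percentiles 40.2, 41.5 and 87.5. Bases in 2 or more lists numbered 5968 in the second of these and 4698 in the third, above the median of 1075 bp over the 330. In the longest, the 3277 bp in both lists were also above that median.

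The lowest-ranked regions in all 3 lists show what recurrence alone can hold. Region chrI:10542103-10543788 had a mean percentile of 27.7 ± 25.5 (SD, n = 3), with scores of 1.44, 1.77 and 3.75. Region chrIII:9874891-9877670 averaged 30.1 ± 24.6, with 1.54, 2.28 and 3.08. Region chrI:9789121-9793578 averaged 33.9 ± 31.3, with 1.32, 2.41 and 3.39. The first 2 had 1 base in all 3 lists and the third had none. Mean percentiles of the 91 regions ran from 27.7 to 93.2 with a median of 62.8, against a median of 53.8 for the 239 regions in 2 lists and 44.7 for regions in 1 list.

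The regions lay on all 6 nuclear chromosomes. Their number was 77 on X, 61 on III, 58 on I, 50 on V, 44 on II and 40 on IV. Per Mb this was 4.43 on III, 4.35 on X, 3.85 on I, 2.88 on II, 2.39 on V and 2.29 on IV. As a share of each chromosome's EGL-43 regions, X had 17.3%, III 16.6%, I 14.8%, II 11.2%, IV 10.4% and V 10.1%, around the 13.3% for the whole. Chromosomes III and X were thus high, and IV and V low, both per Mb and as a share. List 3 had fewer peaks on V than the other lists, 127 against 242 in list 1 and 224 in list 2, and 133 on IV against 171 and 156.

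Chromosome X held 23.3% of the 330 regions, 18% of all nuclear EGL-43 regions and 20.7% of the 82 that recurred for both factors. With the authors' false discovery rate below 0.001, X held 18.6% of the recurring regions and 16.7% of all EGL-43 regions, so the distance between them was smaller there. Support in all 3 lists was found for 27.7% of the autosomal regions together, near the value for X, but it varied between autosomes. It was found for 17 of 44 regions on II (38.6%), 20 of 61 on III (32.8%), 15 of 50 on V (30%), 21 of 77 on X (27.3%), 14 of 58 on I (24.1%) and 4 of 40 on IV (10%). Before the FOS-1 condition, 13 of the 54 recurring EGL-43 regions on IV were in all 3 lists, and 9 of these were dropped by it. No test was made over regions or chromosomes, which are not replicates.

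**Figure D5:**
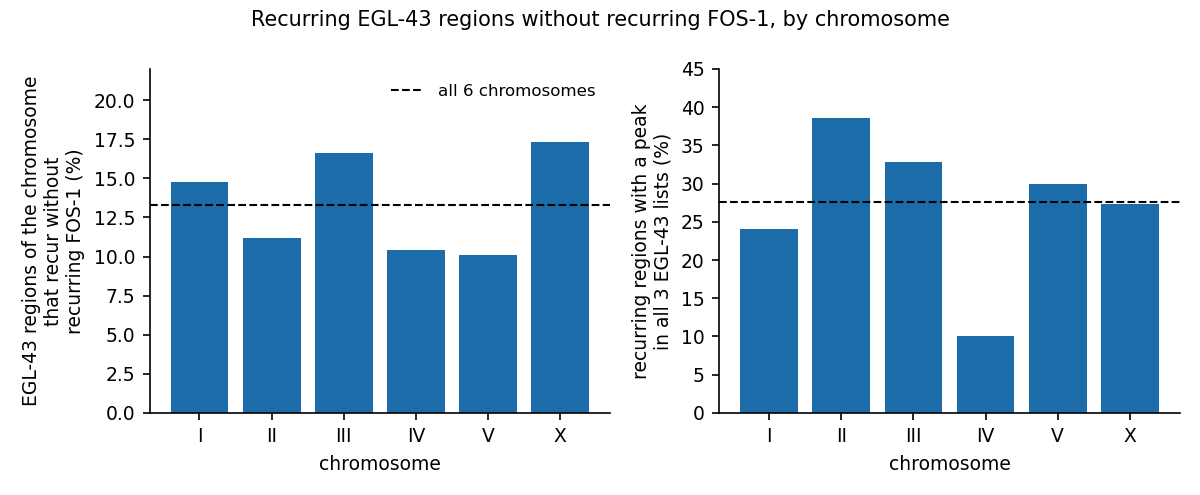
Left, share of each chromosome's EGL-43 regions that are among the 330 (%), with the dashed line at 13.3% for all 6 chromosomes; right, share of those regions with a peak in all 3 EGL-43 lists (%), with the dashed line at 27.6%. X (17.3%) and III (16.6%) are highest at left, and IV (10%) is lowest at right.

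Divided into 3 equal parts, the chromosomes held 149 of the 330 regions (45.2%) in their central part, against 39.6% of all nuclear EGL-43 regions and 52.4% of the regions recurring for both factors. The end of each chromosome was set at its last peak. The central share was 68.2% on II and 64% on V, and 41.4% on I, 39.3% on III, 35% on IV and 32.5% on X. All EGL-43 regions had 47.4% on II, 38.1% on V, 39.3% on I, 41% on III, 41.4% on IV and 31.7% on X in that part. The central share of the recurring regions thus exceeded that of all EGL-43 regions by the most on II and V, was close to it on I, III and X, and was lower on IV.

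Most recurring regions had no other of the 330 within 10 kb, a count that depends on how many regions were chosen. The same spacing was not taken for other sets of this size, so these values do not show whether the regions cluster. The median gap to the next of the 330 was 94.1 kb, and 58 (17.6%) had another within 10 kb, in 26 pairs and 2 groups of 3. The groups of 3 lie at chrIII:4116602-4138823, each of whose regions had a peak in 1 FOS-1 list, and at chrX:11461733-11480727. The densest window of 1 Mb, chrI:9000001-10000000, held 12 of them among 42 EGL-43 regions (28.6%). The next, chrX:5000001-6000000, held 11 among 29 (37.9%), against 13.3% over the whole list. Both were picked for their counts, so high shares follow in part from the picking. Window chrII:4000001-5000000 had 37.5% from 3 of 8 regions. The window on X contains 3 of the regions named above, at 5707994, 5726397 and 5788982.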

How the data were processed

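The data were 6 deposited peak lists and 2 deposited combined lists. Per the submitters' processing notes the tools include minimap2 and SAMtools and the build is ce10; the peak caller is not given in the sources used here. The deposited score of each peak is the authors', on a scale the labels do not state, so peaks were ranked by it inside each list alone. The authors' false discovery rate was below 0.01 for all peaks. Replicates were called separately, and the combined lists pool them. The rule, the regions named and the tests were chosen with earlier results of these data known. Overlap code (Python 3.11.15, pandas 2.3.3, numpy 2.4.6) was tested on simulated lists, where all 255 planted regions were recovered. Percentiles take the highest-scoring peak of a list in the region. Mitochondrial peaks were left out of overlaps. Named regions are the 8 highest by mean percentile in 3 of 3 lists, the 5 highest of those without FOS-1 peaks, the 5 highest in 2 lists without FOS-1 peaks, the 3 longest and the 3 lowest in 3 of 3. The planned look-up of genes, motifs and sequence was not run, since no genome or annotation of ce10 was used here. Alternatives were a stricter false discovery rate, a score filter, other overlap and support rules, and each number left out.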

Additional observations from a re-analysis of the deposited data

How the results depend on the processing

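The excess of EGL-43 over FOS-1 in left-out lists kept its direction under every alternative run, from 31 percentage points at an authors' false discovery rate below 0.001 to 35.6 among peaks at or above the median score, and 24 in base pairs. Its lowest value with 1 number left out was 25.2 (without replicate 3), and its highest 38.2 (without replicate 2). With the replicate number as a block it was the same 31.4 (two-sided exact sign-flip test over 3 pairs, p = 0.25, the lowest possible), and no design here could pass 0.05, so this says nothing about stability. Shares were set beside the 95% Wilson interval of the main value as a guide to size only, since regions are not replicates. Among peaks at or above the median score 186 regions were chosen, which met 147 of the 330 and included 39 others, and 59.7% had no FOS-1 peak. At the stricter false discovery rate X held 18.6%; the cause was not tested. Leaving out 1 number gave 172 to 228 regions, with 46.5% to 53.9% free of peaks of the remaining FOS-1 lists. Peaks of the ignored FOS-1 list were not counted there, so these shares are not comparable with the 48.2% over 3 FOS-1 lists. The share in 3 of 3 lists has no value there. By construction, requiring 3 of 3 lists gave 91 regions, 100% of them in 3 lists and 40.7% without a FOS-1 peak. Excluding any FOS-1 peak gave 159, 100% without one, and no exclusion lowered that share to 38.6%. Keeping touching peaks apart and removing peaks over 15 kb left every value as it was and say nothing about stability, since neighbouring peaks share an edge base and the only peaks that long are 6 in FOS-1 list 1 and 2 in FOS-1 list 3. Trimming peaks by 1 bp at each end, chosen after seeing the data, gave 322 regions, which met 309 of the 330 and included 8 others. Of the 23 named regions, 20 were chosen at the stricter false discovery rate, 19 with the score filter and 21 after trimming. There were 18, 19 and 20 without numbers 1, 2 and 3, 17 in 3 of 3 lists and 13 without any FOS-1 peak. The counts in the second group follow from the lists each named region was picked with, so they say nothing about stability. The stricter rate lost those at chrI:10542103, chrX:5707994 and chrX:7485059, and the score filter those at chrI:9789121, chrI:10542103, chrIII:9874891 and chrX:5788982. Depth is unknown, so a peak missing from a list cannot be told apart from a shallow library.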

Other observations

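Where FOS-1 lists had peaks in the 330 regions, their ranks differed between lists. The median percentile was 25.2 in FOS-1 list 1, 67.7 in list 2 and 22.7 in list 3. In left-out FOS-1 lists the median on the chosen regions was 20.1, 61.3 and 25.9 for numbers 1, 2 and 3, against 51.2, 48.8 and 51 for the other peaks of those lists. On these regions, chosen without recurring FOS-1, the FOS-1 peaks thus ranked low in 2 lists and above the middle in the other.

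Of the 330 regions, 10 held peaks of 2 FOS-1 lists that did not overlap each other and so formed no recurring FOS-1 region. Among them chrV:10853821-10860090 had peaks in all 3 EGL-43 lists, with 2284 bp in every list, a FOS-1 list 2 peak at percentile 94.9 and a FOS-1 list 3 peak at 41. Region chrV:12024749-12030735 also had all 3 EGL-43 lists, with 1974 bp in common, and its FOS-1 list 3 peak touched it by 1 bp. Region chrIII:7729061-7731731 was the other of the 10 with all 3 EGL-43 lists.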
